A study of Mus musculus with 18 samples.

Results

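The 10 receptor genes of the Klr family described here were followed in mouse bone marrow. These were the Ly49 genes Klra7, Klra16, Klra3 and Klra8, the CD94 and NKG2A genes Klrd1 and Klrc1, the NKG2D gene Klrk1, and Klrb1c, Klre1 and Klrg1. They were taken as a named list, chosen with earlier results of these data known, and make up 10 of the 17178 genes that had a named probe. RNA of whole marrow from C3H females was labelled with Cy3 and put on 18 Agilent arrays of 1 colour, 3 for each of 6 groups. The groups were unirradiated 8-week marrow, 8-week marrow 6 h after 2 Gy, 8-week marrow 24 h after 2 Gy, and the same 3 conditions at 1 week of age. Gamma rays were given at 0.6 Gy/min. All mice were of the inbred C3H background and no transgene or other agent was named. The series design gives 3 mice at each time, and p-values measure the spread between those arrays.

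Natural killer (NK) cells read the surface of other cells through lectin-like receptors that are encoded largely in 1 gene complex. Ly49 receptors and the CD94/NKG2A pair bind class I MHC molecules, and most of them inhibit the cell. Activating members such as NKG2D act through small adaptor proteins. In marrow, NK cells mature from lymphoid precursors and acquire Ly49 receptors late, and several of these receptors are also found on subsets of T cells and myeloid cells. Ly49 gene content differs between inbred strains, and the Ly49 genes are close paralogs. The array probes may therefore bind more than 1 Klra transcript in C3H marrow, and which of them gives a Klra signal cannot be told apart here.

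In the GRCm38.p6 annotation of RefSeq all 10 genes were placed on chromosome 6. Klrb1c, Klre1, Klrd1, Klrk1, Klrc1, Klra8, Klra7 and Klra3 lay in that order within the main run of Klr genes. RefSeq promoter windows of 300 bases across the annotated start were found for 7 of the 10, all but Klra16, Klrd1 and Klrg1. The windows of 3 Ly49 genes are shown because they make the paralogy visible. Capitals mark the longest stretch, 18 bases, that all 3 share.
Klra7 (chr6:130233273-130233572, minus strand): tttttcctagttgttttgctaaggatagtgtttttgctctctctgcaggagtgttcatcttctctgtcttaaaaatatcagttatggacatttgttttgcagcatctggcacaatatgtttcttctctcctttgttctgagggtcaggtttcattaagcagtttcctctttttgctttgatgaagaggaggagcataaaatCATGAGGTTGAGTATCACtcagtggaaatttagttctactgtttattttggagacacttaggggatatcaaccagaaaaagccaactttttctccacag
Klra8 (chr6:130129849-130130148, minus strand): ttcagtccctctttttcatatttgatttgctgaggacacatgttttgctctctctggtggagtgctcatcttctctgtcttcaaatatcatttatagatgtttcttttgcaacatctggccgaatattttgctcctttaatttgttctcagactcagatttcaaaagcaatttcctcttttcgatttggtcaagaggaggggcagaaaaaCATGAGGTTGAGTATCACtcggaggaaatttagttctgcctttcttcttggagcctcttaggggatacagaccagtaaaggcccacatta
Klra3 (chr6:130337577-130337876, minus strand): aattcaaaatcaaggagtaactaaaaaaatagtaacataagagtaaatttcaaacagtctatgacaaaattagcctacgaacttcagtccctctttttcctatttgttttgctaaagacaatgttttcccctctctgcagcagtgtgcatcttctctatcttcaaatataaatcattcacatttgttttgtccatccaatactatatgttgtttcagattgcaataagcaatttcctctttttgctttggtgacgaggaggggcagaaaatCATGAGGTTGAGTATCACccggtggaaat
Over their overlapping columns the windows of Klra8 and Klra7 were identical at 79.4%, those of Klra8 and Klra3 at 76.3% and those of Klra7 and Klra3 at 76.5%. Klra7 and Klra8 each have a second annotated start, whose window is not shown.

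Core letters of 3 motifs tied to NK gene control were searched on both strands: TCACAC for T-box factors, TGTGGT for Runx factors and AGGAAG for Ets factors. Of all 32851 mouse windows, 14.49% held the T-box letters, 16.76% the Runx letters and 35.35% the Ets letters. None of the 3 windows above held any of them, while the Klra7 window not shown held 1 Ets match. The Runx letters were found in a window of each of the other 4 genes with an entry, Klrb1c, Klre1, Klrk1 and Klrc1. Both annotated windows of Klre1 held the T-box letters, which no other member window held. Its Runx letters lay in the first window alone and its Ets letters in the second alone. The Klrb1c and Klrc1 windows are shown as examples, with capitals on the matches. In Klrb1c these are 1 Runx match and 3 Ets matches, of which 2 overlap, and in Klrc1 1 Runx match.
Klrb1c (chr6:128788592-128788891, minus strand): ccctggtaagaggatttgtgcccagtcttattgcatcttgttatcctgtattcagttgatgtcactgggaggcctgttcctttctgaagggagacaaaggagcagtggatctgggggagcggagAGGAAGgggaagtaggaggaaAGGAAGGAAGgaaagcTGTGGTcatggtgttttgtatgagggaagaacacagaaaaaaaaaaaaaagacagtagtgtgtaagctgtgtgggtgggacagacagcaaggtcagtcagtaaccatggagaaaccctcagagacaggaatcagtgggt
Klrc1 (chr6:129678924-129679223, minus strand): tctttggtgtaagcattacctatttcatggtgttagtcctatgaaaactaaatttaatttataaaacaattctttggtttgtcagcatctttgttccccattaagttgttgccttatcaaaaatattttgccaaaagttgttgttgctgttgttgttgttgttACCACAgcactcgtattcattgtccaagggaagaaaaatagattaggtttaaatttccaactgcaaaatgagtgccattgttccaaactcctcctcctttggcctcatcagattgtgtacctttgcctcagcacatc
These matches describe letters in the C57BL/6J reference and were not set against binding data.

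All levels below are log2 signals relative to the 75th percentile of the same array, so that 0 is the brightness of the probe at that percentile, and levels of different genes are not set against each other. A probe counts as measured where the scanner software marked it well above background. The share of probes so marked was 51.1% to 62.1% per array, highest on the second 1-week 6 h array. Arrays of a group correlated at 0.978 to 0.997 over genes. The second 1-week control array stood apart in skeletal muscle and cartilage markers: the summed level of the 10 muscle genes with a probe ran from 7.19 to 525 over the 1-week controls, and that of the 10 cartilage genes from 4.17 to 323. Leaving that array out changed no count of called members. In 8-week marrow 9 of the 10 members were measured on all 3 control arrays, 9 on all 3 arrays at 6 h and 8 at 24 h. In 1-week marrow the same was true of 3 members in controls, 3 at 6 h and 1 at 24 h. All 10 entered the test, because each was measured on every array of at least 1 group. Klra16 had 2 probes, Klra3 3 and Klrb1c 2, of which the brightest was used. The other Klra3 probes were measured on 2 and 5 of the 18 arrays and the other Klrb1c probe on none.

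**Figure D1:**
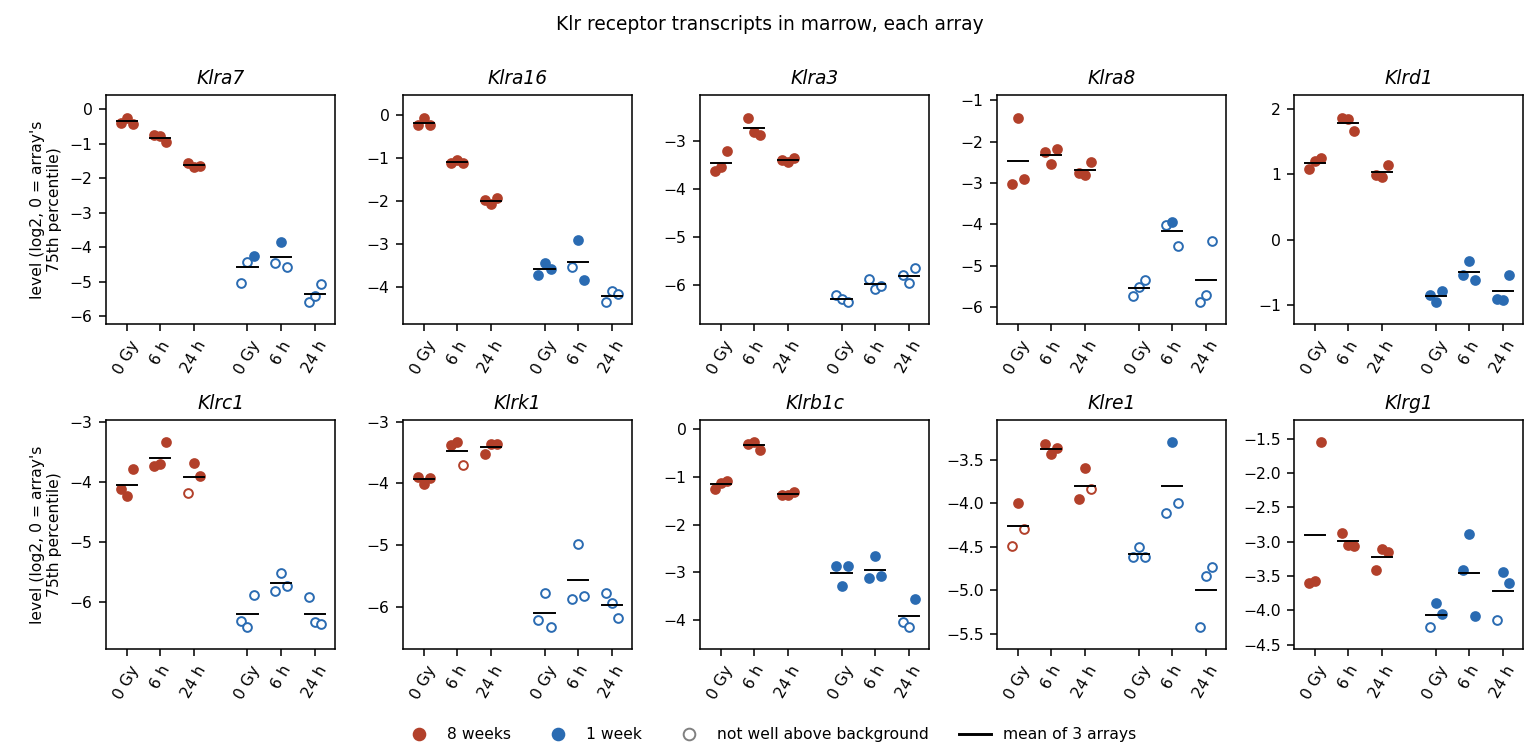
Level of each member on each array (log2, 0 = the array's 75th percentile) by group, 8 weeks in red and 1 week in blue, open where not well above background, bars at the mean of 3 arrays. Klra7 and Klra16 step down at 8 weeks over the 3 conditions, while Klrd1 and Klrb1c peak at 6 h. Each panel has its own axis.

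Of the 10 members, 9 were higher in unirradiated 8-week marrow than in unirradiated 1-week marrow, and none was lower (limma, Benjamini-Hochberg adjusted p under 0.05 over 11884 genes). Over all tested genes 64.9% were called in either direction, 27.4% as higher and 37.5% as lower. The median log2 difference of the members was 2.17, against -0.09 over all genes. Of the 10, 6 were measured on every array of a group at 8 weeks alone (Klra7, Klra3, Klra8, Klrc1, Klrk1 and Klre1). They entered the test through the age at which they were brighter, so the count and the median describe these arrays and carry no test. The adjusted p-values of these 6 for the age difference, given below, likewise carry no test. In bulk marrow, fewer cells of a type and less RNA per cell cannot be told apart.

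Klra7, which encodes the inhibitory Ly49G receptor, had a level of -0.39, -0.24 and -0.43 in 8-week controls, against -5.05, -4.44 and -4.25 in 1-week controls, where only the third array measured it. The fitted difference was 4.23 ± 0.21 (log2, SE; limma adjusted p = 7.43e-11), with 1 of 3 1-week controls measured and no fold given. Klra16, also named Ly49P, had -0.23, -0.06 and -0.24 in 8-week controls and -3.73, -3.45 and -3.59 in 1-week controls. It was measured on all 6 of those arrays, and the groups lay 3.41 ± 0.17 apart (limma adjusted p = 9.68e-11), or 10.6-fold.

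Klra3 encodes Ly49C, an inhibitory receptor for class I MHC. It had -3.62, -3.54 and -3.21 in 8-week controls, and -6.22, -6.30 and -6.36 in 1-week controls, where no array measured it. The 8-week level was at least 1.90-fold higher (limma adjusted p = 1.16e-08), the bound being set against the lowest signal marked well above background on each dim array. That signal is not the detection limit of every probe. On the first 1-week 6 h array it was -4.00, while Klra16 was unmeasured there at -3.54. All folds given as at least a value are therefore approximate. Klra8 encodes Ly49H, known in C57BL/6 mice as the activating receptor for a cytomegalovirus protein. Its level was -3.04, -1.42 and -2.92 in 8-week controls, the second array standing apart, and -5.75, -5.52 and -5.34 in 1-week controls, none of them measured. The difference was at least 3.80-fold (limma adjusted p = 3.67e-06). This bound takes in the high second 8-week array, would be lower without it, and was not recomputed. Without that second array the fitted log2 difference was 2.56, compared with 3.08, and both values rest on unmeasured 1-week signals.

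Klrd1 encodes CD94, the partner chain of NKG2A, and was measured on all 18 arrays. It stood at 1.08, 1.20 and 1.24 in 8-week controls and at -0.85, -0.96 and -0.78 in 1-week controls. The groups did not overlap and differed by 2.04 ± 0.10 (limma adjusted p = 9.68e-11), or 4.10-fold. Klrc1, which encodes the inhibitory partner NKG2A, had -4.12, -4.24 and -3.78 in 8-week controls. In 1-week controls its values were -6.31, -6.42 and -5.88, none of them measured, and the 8-week level was at least 1.27-fold higher (limma adjusted p = 3.52e-06). Klrk1 encodes the activating receptor NKG2D. Its levels were -3.89, -4.01 and -3.91 in 8-week controls and -6.21, -5.78 and -6.34 in 1-week controls, again unmeasured there, a difference of at least 1.36-fold (limma adjusted p = 3.50e-06).

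Klrb1c, the gene of the NK1.1 antigen, had -1.25, -1.12 and -1.08 in 8-week controls and -2.86, -3.28 and -2.87 in 1-week controls. It differed by 1.85 ± 0.16 (limma adjusted p = 4.51e-08), or 3.62-fold. Klrg1 encodes an inhibitory receptor for cadherins that marks mature NK cells and effector T cells. It had -3.60, -3.57 and -1.56 in 8-week controls and -4.25, -3.90 and -4.06 in 1-week controls. Its difference of 1.16 ± 0.41 (limma adjusted p = 0.0213) rested on the third 8-week array. Without that array it was 0.48 (adjusted p = 0.154), without the first 1-week control 1.07 (adjusted p = 0.0605), and with the slide as a block 0.97 (adjusted p = 0.118). Klre1, whose product pairs with Klri1 or Klri2, was the member not called. Its values were -4.49, -3.99 and -4.29 in 8-week controls and -4.62, -4.50 and -4.62 in 1-week controls, a difference of 0.32 ± 0.24 (limma adjusted p = 0.263).

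Background handling changed the size of these age differences. With normexp correction, which adds an offset of 50 to every signal, the 9 called members stayed called, and the fitted differences were 2.62 for Klra7, 2.44 for Klra16, 0.83 for Klra3, 1.16 for Klra8, 0.53 for Klrc1, 0.39 for Klrk1, 1.26 for Klrb1c and 0.58 for Klrg1. Those of Klra3, Klra8 and Klrk1 are smaller than the bounds above, which were computed from the scaled signals without that offset. With the unmeasured second probe averaged in, Klrb1c differed by 0.59 (adjusted p = 0.0213).

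Slide 3 held a control of each age, and the differences within it were 3.86 for Klra7, 3.36 for Klra16, 1.86 for Klrd1, 1.62 for Klrb1c and 0.45 for Klrg1. Other NK gene lists were compared at the same ages, where 27.4% of all tested genes were higher at 8 weeks. Of the other 12 Klr genes with a probe 6 were tested, and 4 of these (Klra9, Klrb1a, Klrb1f and Klrc3) were measured on every array of a group at 8 weeks alone, so their direction is not counted. Higher at 8 weeks were 12 of 14 cytotoxic effector genes, 10 of 15 other NK surface receptors, 7 of 10 NK transcription factors and 11 of 16 adaptors and signalling genes. Lists of other cells also held many higher genes, namely 8 of 13 myeloid and erythroid markers, 5 of 8 mast cell and basophil markers and 5 of 10 B-cell precursor markers. Among the tested genes of these lists, Fasl, Xcl1, Eomes, Sh2d1b1 and Fcer1a were measured on every array of a group at 8 weeks alone. For 1 mast cell and basophil marker this held at 1 week alone. The filter favoured the direction of these genes, so the counts describe these arrays and carry no test. Cd247, the CD3-zeta signalling chain, differed by 1.87, Prf1 (perforin) by 2.27, Ncr1, which encodes the NK receptor NKp46, by 1.14, and the NK transcription factor gene Tbx21 by 1.40. Eomes, another such gene, was called higher but was measured on 1 of 3 1-week controls. Of 10 tested T cell markers 5 were higher and 2 lower, with Cd8a, measured on no 1-week array, among the higher and Cd3g lower (-0.36). The summed T cell marker level (14 genes) was 13.8 to 16.6 in 8-week controls and 11.1 to 14.2 in 1-week controls. Lower at 8 weeks were 5 of 7 tested muscle markers and all 6 tested cartilage markers. Of these markers, 3 of muscle and 2 of cartilage were measured on every array of a group at 1 week alone. Both counts therefore carry no test, and the second 1-week control array stood apart in markers of both cell types. The part of these cells in the receptor differences was not tested.

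In 8-week marrow 6 h after 2 Gy, receptors moved in opposite directions. Klrd1, Klrb1c, Klre1 and Klra3 were higher than in controls and Klra16 was lower, so that 5 of 10 members were called where 46% of all tested genes were (23.9% higher and 22.1% lower). The other 5 were not called. The members' median was 0.46 and that of all genes 0.02.

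Klrd1 reached 1.87, 1.84 and 1.66 at 6 h, above all 3 controls, and differed by 0.62 ± 0.10 (limma adjusted p = 0.000183), or 1.53-fold. Klrb1c reached -0.31, -0.28 and -0.43, likewise clear of its controls, and differed by 0.81 ± 0.16 (limma adjusted p = 0.000651), or 1.76-fold. Klre1 had -3.32, -3.44 and -3.37 at 6 h and was then measured on all 3 arrays, compared with 1 of 3 control arrays. It passed the filter through this group alone, so its adjusted p here carries no test. The fitted difference was 0.88 ± 0.24 (limma adjusted p = 0.00762), and 0.49 with normexp. Klra3 had -2.51, -2.82 and -2.88 at 6 h, a difference of 0.72 ± 0.22 (limma adjusted p = 0.0123). This call was lost without the first 6 h array (0.61, adjusted p = 0.0638), without the first 8-week control (0.64, adjusted p = 0.0534) and when all 3 Klra3 probes were averaged (0.71, adjusted p = 0.0958).

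Klra16 fell to -1.12, -1.06 and -1.13 at 6 h, all below the 8-week controls. The log2 difference was -0.93 ± 0.17 (limma adjusted p = 0.000454), or 0.526 of the control level. Klra7 had -0.76, -0.77 and -0.96, also below each control, but its difference of -0.48 ± 0.21 missed the threshold (limma adjusted p = 0.0707). Among 27 other fits Klra7 was called as lower in 4. Klrc1 had -3.74, -3.70 and -3.34 at 6 h (0.45, adjusted p = 0.189) and Klrk1 -3.38, -3.34 and -3.70 (0.46, adjusted p = 0.179). Neither was called in the main fit, and each was called as higher in 1 of 27 other fits. Klra8, at -2.25, -2.53 and -2.17, and Klrg1, at -2.87, -3.06 and -3.06, overlapped their controls and were not called (0.14 and -0.09). Without the control array that stood apart, their differences were 0.66 (adjusted p = 0.140) and 0.59 (adjusted p = 0.111). Within slide 3, which held an array of each group, Klra16 differed by -0.90, Klrd1 by 0.58, Klrb1c by 0.82, Klra3 by 0.74 and Klre1 by 1.13.

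**Figure D2:**
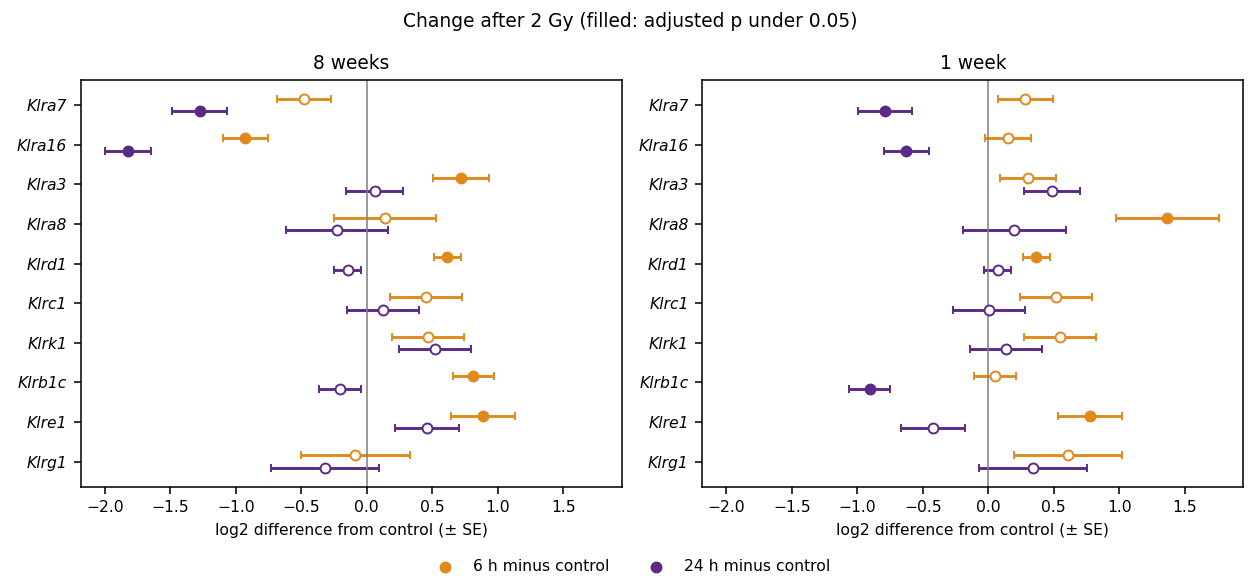
Log2 difference from the control of the same age for each member, 6 h in orange and 24 h in purple (point, fitted difference; bar, SE; filled, adjusted p under 0.05), with 8-week marrow left and 1-week marrow right. At 8 weeks Klra16 lies at -0.93 at 6 h and -1.82 at 24 h. At 1 week Klrb1c lies at -0.91 at 24 h.

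By 24 h after 2 Gy in 8-week marrow the called members were Klra16 and Klra7, both lower, and none was higher. Of all tested genes 57.8% were called (38.3% higher and 19.5% lower). The members' median was -0.18 and that of all genes 0.12. Both comparisons in 8-week marrow use the same 3 controls, as do both in 1-week marrow.

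Klra16 had -1.99, -2.09 and -1.93 at 24 h, below every 6 h and control array of that age. It differed from control by -1.82 ± 0.17 (limma adjusted p = 2.3e-07), or 0.283 of the control level, and from the 6 h arrays by -0.90 ± 0.17 (limma adjusted p = 0.000402). A second probe for Klra16, measured on the 8-week control and 6 h arrays and on no other, differed by -1.27 at 6 h (limma adjusted p = 0.00354). It was not well above background on any 8-week 24 h array. Klra7 had -1.56, -1.68 and -1.63 at 24 h, again below all 6 h and control arrays. Its difference from control was -1.28 ± 0.21 (limma adjusted p = 7.46e-05), or 0.413 of the control level, and from the 6 h arrays -0.80 ± 0.21 (limma adjusted p = 0.00458). Within slide 5, which held an array of each group, the differences from control were -1.68 for Klra16 and -1.21 for Klra7.

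Members that were higher at 6 h lay nearer to control at 24 h. Klrd1 had 0.99, 0.96 and 1.14 (difference from control -0.15, adjusted p = 0.235) and Klrb1c -1.38, -1.37 and -1.31 (-0.20, adjusted p = 0.280). Klra3 had -3.39, -3.43 and -3.36 (0.06, adjusted p = 0.826). Klre1 still lay 0.46 above control at 24 h, and its fall from 6 h was not called (-0.42, limma adjusted p = 0.166). These members were picked for being higher on the same 6 h arrays, which favours a fall. Against the 6 h arrays Klrd1, Klrb1c and Klra3 were lower at 24 h. The differences were -0.76 ± 0.10 for Klrd1 (limma adjusted p = 1.54e-05), -1.02 ± 0.16 for Klrb1c (limma adjusted p = 5.86e-05) and -0.66 ± 0.22 for Klra3 (limma adjusted p = 0.018). With Klra16 and Klra7 this made 5 of 10 members lower at 24 h than at 6 h, where 49.4% of tested genes were called (33% higher and 16.5% lower). The Klra3 call was lost without the first 6 h array (-0.55, adjusted p = 0.0868) and without the second 24 h array (-0.64, adjusted p = 0.0539). It was also lost with quantile normalization (-0.52, adjusted p = 0.0573) and with its 3 probes averaged (-0.38, adjusted p = 0.38). The Klrb1c call was lost when its unmeasured second probe was averaged in (-0.43, adjusted p = 0.107).

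The remaining members showed no called change at 24 h in the main fit. Among 27 other fits Klrk1 and Klre1 were called as higher in 2 each and Klrc1 in 1. Klre1 had -3.95, -3.60 and -3.84 (0.46, adjusted p = 0.116) and Klrk1 -3.52, -3.37 and -3.36 (0.52, adjusted p = 0.117), both above all of their controls. Klrc1 had -4.18, -3.68 and -3.90 (0.13), Klra8 -2.77, -2.80 and -2.49 (-0.23) and Klrg1 -3.41, -3.11 and -3.15 (-0.32), all overlapping their controls. Without the control array that stood apart, Klra8 differed by 0.29 (adjusted p = 0.493) and Klrg1 by 0.36 (adjusted p = 0.303).

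**Figure D3:**
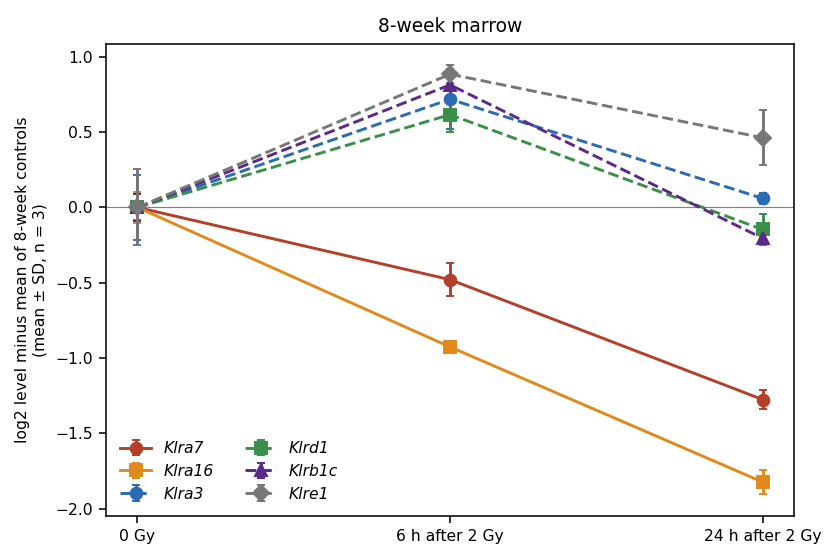
Level of 6 members in 8-week marrow over unirradiated controls, 6 h and 24 h after 2 Gy, as log2 difference from the mean of the controls (points, means of 3 arrays; bars, SD). Klra7 and Klra16, with solid lines, lie lower at each later time. Klrd1, Klrb1c and Klra3 are high at 6 h and lie at -0.15, -0.20 and 0.06 at 24 h. Klre1 is also high at 6 h and lies at 0.46 at 24 h.

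At 1 week of age 6 h after 2 Gy, 3 members were higher than in controls and none lower, Klra8, Klrd1 and Klre1. Of all tested genes 51.8% were called (25.5% higher and 26.3% lower). Klrd1 had -0.54, -0.33 and -0.62 against -0.85, -0.96 and -0.78 in controls, with no overlap. Its difference was 0.37 ± 0.10 (limma adjusted p = 0.00708), and 0.22 with the slide as a block (adjusted p = 0.0609). Klra8 had -4.02, -3.95 and -4.53 against -5.75, -5.52 and -5.34 in controls, and only the second 6 h array measured it, so no size is given (limma adjusted p = 0.00782). Klre1 had -4.11, -3.30 and -4.00 against control values near -4.58, and was measured on that same array alone (limma adjusted p = 0.0137). Without it the Klre1 call was lost (adjusted p = 0.0821).

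The other 7 members were not called at 6 h in 1-week marrow. Klrb1c, at -3.12, -2.66 and -3.08, and Klra16, at -3.54, -2.91 and -3.85, overlapped their controls (0.05 and 0.15). Klra7 had -4.46, -3.85 and -4.58 (0.28) and Klrg1 -3.41, -2.89 and -4.08 (0.61, adjusted p = 0.229). The probes used for Klra3, Klrc1 and Klrk1 were measured on no 1-week array, and another Klra3 probe was measured on 1 of the 3 arrays at 6 h.

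At 24 h in 1-week marrow 3 members were lower than in controls and none higher, where 36% of tested genes were called (18.4% higher and 17.6% lower). Klrb1c had -4.04, -4.15 and -3.55, below all 3 controls, and differed by -0.91 ± 0.16 (limma adjusted p = 0.000306). Klra16 had -4.37, -4.11 and -4.17, measured on none of these arrays, and was at least 1.37-fold lower (limma adjusted p = 0.00912). Its second probe was measured on no 1-week array. Klra7 had -5.60, -5.43 and -5.07, none of them measured. Its fitted difference was -0.79 ± 0.21 (limma adjusted p = 0.00726), with 1 of 3 controls measured, and no fold is given.

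These 3 calls depended on how background was handled. With normexp background correction Klra7 gave 0.023 (adjusted p = 0.895), Klra16 -0.034 (adjusted p = 0.828) and Klrb1c -0.20 (adjusted p = 0.106). With the second probes averaged in, which no 1-week array measured, Klra16 gave -0.21 (adjusted p = 0.483) and Klrb1c -0.50 (adjusted p = 0.0795). Klrd1, at -0.90, -0.93 and -0.54, overlapped its controls at 24 h (0.07). Klre1 (-0.42, adjusted p = 0.199), Klrg1 (0.34) and Klra8 (0.20) were not called either. Between the times, 6 of 10 members were lower at 24 h than at 6 h, namely Klra7, Klra16, Klra8, Klrd1, Klrb1c and Klre1, where 36.2% of tested genes were called (18.6% higher and 17.6% lower). Of these 6, Klrd1 was measured on all 24 h arrays, Klrb1c on 1 and the other 4 on none. The calls of Klra8 (fitted difference -1.17) and Klrd1 (-0.29) were lost without the first or the second array of either time, with values of -1.10, -1.06, -0.89 and -0.98 for Klra8 and of -0.32, -0.21, -0.24 and -0.22 for Klrd1. With normexp the calls of Klra8 (-0.30, adjusted p = 0.296) and Klra7 (-0.28, adjusted p = 0.0514) were lost, with quantile normalization that of Klra8 (-0.85, adjusted p = 0.105), and with the slide as a block that of Klrd1 (-0.22, adjusted p = 0.0767). The second 6 h array moved the fitted Klra16 value, which was -0.78 with it and -0.52 without it (adjusted p = 0.00663).

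Markers of other cells moved in 1-week marrow as well. Of 10 tested B-cell precursor markers 9 were lower at 6 h and 9 at 24 h. Of 13 myeloid and erythroid markers 9 were higher and 3 lower at 6 h, and 8 were higher and 2 lower at 24 h. Of 10 T cell markers 3 were higher and 1 lower at 6 h, and 3 were higher and 3 lower at 24 h. Among NK genes at 24 h, 1 of 14 cytotoxic genes was higher and 4 lower, and 3 of 15 other NK surface receptors were higher and 5 lower. At 6 h these were 4 higher and 3 lower, and 7 higher and 4 lower. Of all tested genes 25.5% were higher and 26.3% lower at 6 h, and 18.4% higher and 17.6% lower at 24 h. The part of these cells in the receptor changes was not tested.

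Whether the ages responded differently was tested directly, as the change at 8 weeks minus the change at 1 week. At 6 h Klra16 differed by -1.08 ± 0.24 (limma adjusted p = 0.00693) and Klrb1c by 0.76 ± 0.22 (limma adjusted p = 0.0267), where 18.6% of tested genes were called (10.5% higher and 8.09% lower). At 24 h Klra16 differed by -1.20 ± 0.24 (limma adjusted p = 0.00108) and Klrb1c by 0.70 ± 0.22 (limma adjusted p = 0.0195), where 42.1% were called (28.5% higher and 13.5% lower). The other 8 members were not called at either time, including Klra7 (-0.76, adjusted p = 0.0834 at 6 h, and -0.49, adjusted p = 0.200 at 24 h). Klre1 stood at the threshold at 24 h (0.88 ± 0.35, limma adjusted p = 0.05001) and was called in 10 of 27 other fits. No 1-week control or 24 h array measured Klre1. Klra16 was measured on none of the 1-week 24 h arrays and Klrb1c on 1, so their 24 h change at 1 week rests on dim signals. The Klrb1c difference at 24 h was 0.031 (adjusted p = 0.877) with normexp correction, and that at 6 h was 0.49 (adjusted p = 0.271) with its unmeasured second probe averaged in. Its call at 6 h was also lost in 7 of the 18 fits that left out an array.

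Partners and ligands of the receptors were followed as named lists. Among 16 adaptors and signalling genes at 8 weeks, 8 were higher and 2 lower at 6 h, and 7 were higher and 4 lower at 24 h. Of all tested genes 23.9% were higher and 22.1% lower at 6 h, and 38.3% higher and 19.5% lower at 24 h. Hcst (DAP10, the adaptor of NKG2D) was higher by 0.57 at 6 h and 0.48 at 24 h, and Tyrobp (DAP12, the adaptor of activating Ly49 receptors) by 0.45 and 0.67, both also higher at 1 week. Both adaptors are used by myeloid cells as well, and of 13 myeloid and erythroid markers 7 were higher and none lower at 6 h, and 9 higher and 2 lower at 24 h, in 8-week marrow. Syk, a kinase downstream of DAP12, was lower, with differences of -0.51 and -0.59. The part of myeloid and other cells in these adaptor and kinase differences was not tested.

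Of 9 tested ligand genes at 8 weeks 2 were higher at 6 h, the cadherin genes Cdh1 and Cdh2, whose products are bound by Klrg1. Cdh1 was higher by 0.45, and no size is given for Cdh2, which no 8-week control or 6 h array measured. At 24 h 4 were higher and Clec2i, which encodes a ligand of a Klrb1 family receptor, was lower (-0.63). H2-T23, the gene of the Qa-1 ligand of CD94/NKG2A, was higher by 0.30, and B2m, the light chain of class I MHC, by 0.24. The ligand counts stand beside 23.9% of all tested genes higher and 22.1% lower at 6 h. At 24 h these shares were 38.3% and 19.5%.

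Other NK genes at 8 weeks gave a mixed picture beside the fall of Klra16 and Klra7. At 24 h Ncr1 was higher by 0.42 (limma adjusted p = 0.0219) and Tbx21 by 0.42 (limma adjusted p = 0.00693), while Eomes (0.26, adjusted p = 0.351), Prf1 (0.46, adjusted p = 0.0718) and Gzma, the granzyme A gene (-0.08, adjusted p = 0.644) were not called. Of 14 cytotoxic genes 8 were higher and 1 lower at 6 h, and 9 were higher and none lower at 24 h, where over all tested genes 23.9% were higher at 6 h and 38.3% at 24 h. Of 15 other NK surface receptors 8 were higher and 2 lower at 6 h, and 7 higher and 3 lower at 24 h. Slamf7, an activating receptor also found on B-lineage cells, was lower, with differences of -1.40 at 6 h and -1.73 at 24 h, and all 10 tested B-cell precursor markers were lower at both times. The summed T cell marker level was 17.4 to 22.0 at 6 h and 19.9 to 21.6 at 24 h, against 13.8 to 16.6 in controls, with 4 of 10 tested genes higher and 1 lower at 6 h, and 3 higher and 1 lower at 24 h. Cd3e, a chain of the T cell receptor complex, was not called (-0.39, adjusted p = 0.391 at 6 h, and -0.23, adjusted p = 0.603 at 24 h). Of 8 tested mast cell and basophil markers 6 were higher at 6 h and 2 at 24 h, none of 7 tested muscle markers was called at either time, and 1 of 6 tested cartilage markers was higher at each. The part of these cells in the receptor changes was not tested.

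Within the wider Klr family, Klra17 and Klra2, Ly49 genes known from myeloid and plasmacytoid cells, did not follow Klra16 and Klra7. At 8 weeks Klra17 was higher by 0.72 at 6 h and 0.82 at 24 h, and Klra2 by 0.67 and 0.61. Both were also higher at 1 week, Klra17 by 0.67 at 6 h and 0.59 at 24 h and Klra2 by 0.53 and 0.59. Of the 6 tested genes outside the list, 3 were higher and none lower at 6 h in 8-week marrow, and 2 were higher and none lower at 24 h. Over all tested genes 23.9% were higher and 22.1% lower at 6 h, and 38.3% higher and 19.5% lower at 24 h. Klra9, Klrb1a, Klrb1f and Klrc3 among the 6 were measured on every array of a group at 8 weeks alone.

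The members' own courses over the 6 group means, each centred on its mean, were compared with their median course by the root mean square difference. The 1-week part of most members' courses comes from probes at or below background, so the members are not ranked by it. Of all other tested genes the nearest was Cd247 (0.103), followed by Ly6d (0.131), Npm2 (0.164), Upb1 (0.181) and Prss34 (0.182). Clec10a, Ms4a4b, Wdr95, Txk and Fasl made up the rest of the 10 nearest, at 0.186 to 0.214. The age step makes up most of this course, and the measure says nothing of the cells in which a gene is expressed.

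**Figure D4:**
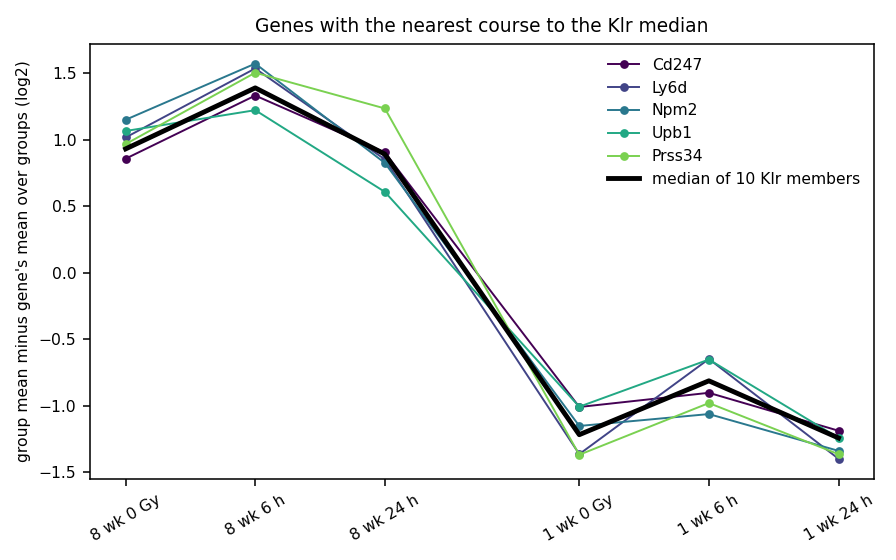
Centred course over the 6 groups (log2 group mean minus the gene's mean over groups) of the 5 genes nearest to the median course of the 10 members, which is the thick black line. The 8-week groups are left of the 1-week groups, and every course is higher at 8 weeks.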

How the data were processed

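Whole marrow RNA on 18 arrays was analysed in 6 groups of 3 taken from the labels. Spot intensity values in the deposited files came from the authors' run of Agilent Feature Extraction, version 11.5.1 per the submitters' processing notes and 9.5.1.1 per the file headers, background-subtracted but not scaled between arrays. The deposited files also hold flags for spots well above background, saturated or outlying (other values, 0 or 1). The authors' deposited series matrix holds log2 values, whose column medians ran from -0.168 to 0.245. Set against the array files over 41174 of 41252 rows, they were signals shifted by each array's 75th percentile and centred on each probe's median.

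Control and outlier spots were left out, spots of a probe were averaged, and log2 signal was taken minus the array's 75th percentile. RefSeq accessions named 24844 of 41174 probes, and the brightest probe stood for a gene. A probe counted as measured with at least 0.5 of its spots well above background, and a gene was tested if measured on all 3 arrays of a group (11884 of 17178 genes). R 4.3.3 and limma 3.58.1 fitted group means over all 18 arrays with an intensity trend (12 residual and 4.33 prior degrees of freedom), Benjamini-Hochberg adjusted, called under 0.05, for 9 comparisons. The fit was tested on simulated data. The 3 arrays a group limit the precision. Biopython 1.88 aligned the promoter windows with free end gaps.

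The members and gene lists were chosen with earlier results of these data known. Named beyond the members were up to 4 called genes per list and comparison with the smallest adjusted p, 10 genes named in any case (Ncr1, Eomes, Tbx21, Gzma, Prf1, Cd3e, Hcst, Tyrobp, B2m and H2-T23) and the 10 genes nearest to the median course. Lists of mast cell and basophil, muscle and cartilage markers were also counted. Alternatives were normexp correction, quantile normalization, another percentile, averaged probes, no filter, slide or replicate blocks, no trend, the deposited matrix and leaving out each array. Files held no mean signal, so normexp used median spot signal with an offset of 50. On 1 array 11 spots whose local background exceeded 10 times the array median were set to that median, a step added after seeing the data.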

Additional observations from a re-analysis of the deposited data

Results flagged for a closer look

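Klra16 and Klrb1c responded to 2 Gy differently at the 2 ages by the test of the difference itself, in opposite directions. For Klra16 the change at 8 weeks minus that at 1 week was -1.08 at 6 h and -1.20 at 24 h. In 8-week marrow its log2 differences were -0.93 and -1.82, while in 1-week marrow its fitted differences were 0.15 and -0.63. It was measured on no 1-week 24 h array, and with normexp its 24 h value there was -0.034 (adjusted p = 0.828). For Klrb1c the change at 8 weeks minus that at 1 week was 0.76 at 6 h and 0.70 at 24 h. In 8-week marrow its differences were 0.81 and -0.20, and in 1-week marrow 0.05 and -0.91. The Klrb1c call at 6 h was lost in 7 of the 18 fits that left out an array: 1-week control array 1 or 3, 1-week 6 h array 1 or 3, 8-week control array 1, or 8-week 6 h array 1 or 2 (adjusted p up to 0.0691). It was also lost with the unmeasured second probe averaged in (0.49, adjusted p = 0.271). The call at 24 h was lost with normexp (0.031, adjusted p = 0.877) and in 1 such fit, without the second 1-week 24 h array (0.58, adjusted p = 0.0554).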

How the results depend on the processing

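Over the 90 member differences and 9 other settings, 760 of 810 results kept their direction and side of the threshold, 17 lost and 32 gained a call and 1 turned round (Klra7 at 24 h in 1-week marrow, 0.023 with normexp). In 23 further cases a value that was never called changed sign. Of 37 called differences, 19 changed in size by over 1.5 times with normexp, 7 with probes averaged and 1 each with quantile normalization and with slide as a block. Leaving out arrays lost 23 and gained 7 calls of 1620, reversed none and turned 29 uncalled values. With normexp, called members numbered 8 at 6 h and 1 at 24 h at 1 week, and 8 at 6 h and 5 at 24 h at 8 weeks, compared with 3, 3, 5 and 2. Without the intensity trend they numbered 6 at 6 h at 1 week and 4 for the 24 h age difference in response. With probes averaged they numbered 1 at 24 h at 1 week, 1 for the 6 h age difference in response and 3 for 24 h against 6 h at 8 weeks. The shares of all genes called in these fits are not given here, so the counts are not read as results about the members. With normexp the 6 h calls gained at 1 week included Klra3, Klrc1 and Klrk1, whose used probes no 1-week array measured. With an array left out, the 6 h age difference in response held 1 to 2 called members and the 24 h one 1 to 3. With slide as a block, 1370 genes were called for the 6 h age difference in response, compared with 2210. Replicate numbers did not pair the arrays: same-numbered pairs correlated at -0.27 to 0.32, and 9 of 18 arrays correlated best with their own number. With the replicate block 3 members were called for the 24 h age difference in response, compared with 2, the addition being Klre1 (0.88, adjusted p = 0.0343). Signal over background limits the 1-week values more than the 8-week values. At 1 week 5 members in controls and 7 at 24 h were measured on no array.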
